A study of Homo sapiens with 8 samples.

Results

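The replication clamp PCNA, its loader RFC and the single-stranded DNA (ssDNA) binding complex RPA were followed through the RNA-seq of 2 uveal melanoma (UVM) cell lines in which the level of APOBEC3B (A3B) was changed. The 10 genes were taken by symbol, RPA1, RPA2 and RPA3 for the 3 RPA subunits, RFC1 to RFC5 for the 5 RFC subunits, PCNA, and CHTF18 for the large subunit of an alternative loader. They are 10 of the 19952 gene symbols in each library. The rule that picks them uses names and no measured value, although it was set with earlier results of these data known. In MEL290 cells overexpressing A3B, PCNA, RFC2 and RFC3 were higher than in control cells, while the RPA1 and RPA2 libraries of both groups overlapped. Of all genes tested there, 10.3% were called higher. In 92.1 cells depleted of A3B, 0 of the 10 genes passed the test, where only 0.00862% of all genes did, which is 1 gene, APOBEC3B itself. The widest contrast was between the lines, since 9 of the 10 genes were higher in 92.1 controls than in MEL290 controls, by 1.73-fold to 3.61-fold, while RFC1 had the same mean in both. Of all genes tested between the lines, 39.3% were called higher in 92.1.

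RPA coats ssDNA wherever the duplex is opened, at replication forks, during repair and along the displaced strand of an R-loop, and it is the platform from which the ATR kinase is activated. RFC is an ATP-driven machine that opens the ring-shaped PCNA trimer and closes it around DNA at a primer end, after which PCNA tethers DNA polymerases, ligase and many repair proteins. RFC2 to RFC5 are shared by several loaders that differ in their large subunit, namely RFC1 for canonical replication and CHTF18 for the loader that serves sister chromatid cohesion and leading strand synthesis. A3B is a cytidine deaminase whose substrate is ssDNA, and the study asked how A3B acts together with R-loops in replication stress of melanoma cells.

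Each of 4 groups had 2 libraries, 8 in all. The 92.1 cells carried either a control construct (shCtrl), which the methods of the study call an empty vector, or a short hairpin RNA against A3B (shA3B), and the labels do not say which hairpin was used. The MEL290 cells carried either a negative control (NC) or an expression construct for full-length A3B (A3B OE). Both lines are labelled as uveal melanoma cells and were grown in the same RPMI1640 medium, and according to the methods the cells were infected with lentivirus and selected with puromycin. Values are FPKM, mapped fragments of a gene scaled for transcript length and library size, which the authors calculated with Cufflinks. Since FPKM is per length, levels of different genes can be compared, but the sequencing depth is unknown. Nothing in the labels says that the 2 libraries of a group came from separate cultures, so p-values measure only the spread between these libraries. Between 11389 and 11524 genes reached 1 FPKM in a library, and replicates correlated at r of 0.988 to 0.990 across genes.

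The targeted gene followed the labels. APOBEC3B was at 35.9 and 32.3 FPKM in shCtrl, 1.98 and 2.37 in shA3B, 2.67 and 2.19 in NC, and 28.4 and 27.5 in A3B OE. The log2 fold change was -3.47 after depletion in 92.1 and 3.08 after overexpression in MEL290 (adjusted p = 2.4e-06 and 0.00078, limma). The labelled cell type was checked with 8 melanocyte lineage genes, whose summed level was 7116 to 8713 FPKM in 92.1 but 15.2 to 20.7 FPKM in MEL290. In MEL290 nearly all of that sum was MITF, the melanocyte transcription factor, at 13.7 to 19.6 FPKM. The pigment gene TYR was listed at 0 in all 4 MEL290 libraries and PMEL was at 0.836 to 1.31 FPKM. MEL290 is therefore called by its name below, without a lineage. Of the other cell types checked, CD3E and KRT5 were listed at 0 in all 8 libraries. The 3 fibroblast genes summed to 26.9 to 27.5 FPKM in NC, 29.3 to 40.7 in A3B OE and 5.50 to 7.61 in 92.1. These genes did not run together. COL1A1 was at 26.9 to 40.7 FPKM in MEL290 and 1.67 to 2.92 in 92.1. LUM was at 0 to 0.126 FPKM in MEL290 and 3.58 to 5.03 in 92.1, and DCN was at or near 0. The 3 leukocyte genes summed to 14.5 to 35.0 FPKM across the 8 libraries, nearly all of it CD68, and the 4 epithelial genes to 0.590 to 2.75. KRT14, the 1 epithelial gene tested in MEL290, was lower in A3B OE, at 0.412 and 0.545 FPKM against 1.98 and 2.36 in NC. CDH1, which was not tested there, did not fall with it. It was at or below 0.393 FPKM in both NC libraries and at 0.301 and 2.14 in A3B OE. The epithelial sums of these groups overlapped, at 2.16 to 2.75 FPKM in NC and 0.771 to 2.75 in A3B OE. The part of these markers in the results below was not tested.

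The start-site windows of 5 loci are shown because they belong to the 3 genes that rose in MEL290 (PCNA, RFC2 and RFC3), to RPA1, which did not pass the test, and to RFC1, the gene without a difference between the lines. They are RefSeq windows of 300 bases on GRCh38.p14, from 250 bases before to 50 bases after an annotated start, printed 5′ to 3′ on the strand of the gene. RefSeq windows were matched for 8 of the 10 genes, 9 windows in all since PCNA has a pair of starts. RPA2 and RPA3 had no entry. Capitals mark CCAAT boxes (CCAAT or, on the other strand, ATTGG), the CRE palindrome TGACGTCA, and E2F-type words, searched as TTTCCCGC, TTTCGCGC, TTTGCCGC and TTTGGCGC on both strands.
PCNA, upstream start, chr20:5126573-5126872, minus strand: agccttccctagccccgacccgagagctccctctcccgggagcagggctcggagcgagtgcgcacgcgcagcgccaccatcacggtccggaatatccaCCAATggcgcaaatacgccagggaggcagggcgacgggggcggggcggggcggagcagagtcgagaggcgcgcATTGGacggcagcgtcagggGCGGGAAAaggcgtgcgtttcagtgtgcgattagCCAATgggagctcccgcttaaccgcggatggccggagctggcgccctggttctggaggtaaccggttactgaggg
PCNA, downstream start, chr20:5119909-5120208, minus strand: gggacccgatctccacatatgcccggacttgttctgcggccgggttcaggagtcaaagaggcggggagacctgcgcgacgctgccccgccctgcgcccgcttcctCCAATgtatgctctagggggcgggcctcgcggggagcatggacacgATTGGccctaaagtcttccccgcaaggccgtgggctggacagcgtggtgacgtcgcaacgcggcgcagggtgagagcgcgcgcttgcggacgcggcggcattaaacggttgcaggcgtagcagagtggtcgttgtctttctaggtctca
RFC2, chr7:74254350-74254649, minus strand: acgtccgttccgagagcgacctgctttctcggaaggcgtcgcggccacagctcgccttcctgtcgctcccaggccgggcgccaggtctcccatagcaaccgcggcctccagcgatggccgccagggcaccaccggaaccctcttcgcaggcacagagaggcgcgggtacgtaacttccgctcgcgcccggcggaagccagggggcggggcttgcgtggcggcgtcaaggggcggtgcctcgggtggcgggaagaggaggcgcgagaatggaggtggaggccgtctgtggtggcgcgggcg
RFC3, chr13:33817899-33818198, plus strand: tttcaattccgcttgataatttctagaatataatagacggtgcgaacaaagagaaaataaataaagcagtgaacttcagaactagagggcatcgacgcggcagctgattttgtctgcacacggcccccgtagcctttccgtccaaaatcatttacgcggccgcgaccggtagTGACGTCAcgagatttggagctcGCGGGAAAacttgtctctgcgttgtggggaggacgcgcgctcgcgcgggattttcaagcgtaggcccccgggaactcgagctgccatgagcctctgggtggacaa
RPA1, chr17:1829755-1830054, plus strand: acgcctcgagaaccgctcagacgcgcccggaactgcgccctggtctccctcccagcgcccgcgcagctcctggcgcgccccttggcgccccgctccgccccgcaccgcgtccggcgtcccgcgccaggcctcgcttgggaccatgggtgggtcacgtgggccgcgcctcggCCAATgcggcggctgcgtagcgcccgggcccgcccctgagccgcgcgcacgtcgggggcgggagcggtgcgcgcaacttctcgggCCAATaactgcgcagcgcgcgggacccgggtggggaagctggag
RFC1, chr4:39366313-39366612, minus strand: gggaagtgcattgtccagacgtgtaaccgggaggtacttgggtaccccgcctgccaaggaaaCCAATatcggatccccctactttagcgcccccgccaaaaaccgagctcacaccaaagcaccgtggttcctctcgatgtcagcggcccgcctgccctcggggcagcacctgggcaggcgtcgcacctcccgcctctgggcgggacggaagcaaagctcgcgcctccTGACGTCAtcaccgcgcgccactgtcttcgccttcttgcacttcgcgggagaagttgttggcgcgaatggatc

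An E2F-type word, the recognition sequence of the factors that drive many S phase genes, was present in 2 of the 9 windows, against 3.31% of 35116 windows of all genes. These were RFC3, at positions -55 to -48, and the upstream PCNA start, at -59 to -52. A CCAAT box was present in 6 of the 9 windows against 34.6% of all windows, and the CRE palindrome in 2 of the 9, RFC1 and RFC3, against 1.85% of all windows. None of these words overlapped another in the printed windows. The RFC2 window held none of the searched words, and the RPA1 window held CCAAT at -79 to -75 and at 7 to 11. A match describes the letters only, and no binding was measured here.

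PCNA was the most abundant of the 10 transcripts in each group, and RFC subunits and RPA subunits lay within the same range. In 92.1 shCtrl cells PCNA was at 204 ± 2.44 FPKM (SD, n = 2) and the other 9 genes were between 15.9 and 43.9 FPKM on average. In MEL290 NC cells PCNA was at 75.4 ± 0.775 FPKM (SD, n = 2) and the others were between 7.44 and 20.2. For 8 of the 10 genes the group means fell in the order shA3B, shCtrl, A3B OE, NC. The exceptions were RFC3, with shCtrl just above shA3B and overlapping libraries, and RFC1, which was highest in A3B OE and lowest in shCtrl. PCNA was the 1 gene for which neighbouring groups in that order did not overlap at any step. The plot of FPKM by library shows each of these values.

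**Figure D1:**
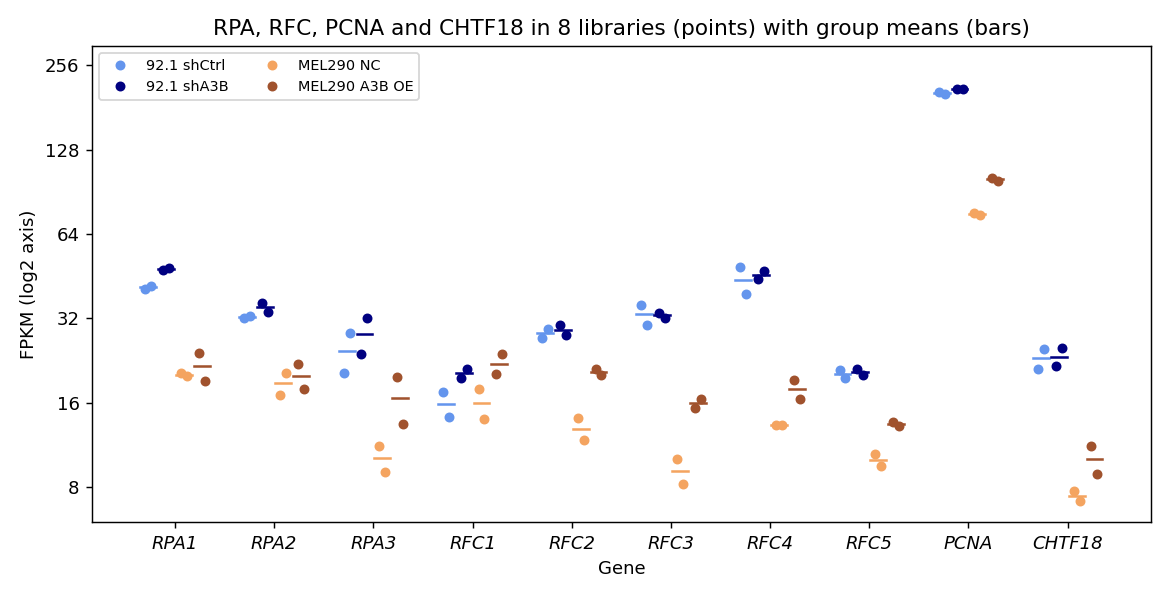
FPKM (log2 axis) of the 10 genes in the 8 libraries, with points for libraries, short bars for group means and colours for the 4 groups. PCNA lies above the other genes in each group (75.4 FPKM on average in NC, 210.4 in shA3B), and RFC1 is the gene whose 92.1 and MEL290 libraries overlap.

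The first comparison asked whether A3B overexpression in MEL290 changed these genes, using limma on log2(FPKM + 1) over the 11611 genes with at least 1 FPKM in at least 2 of the 4 libraries. All 10 genes passed this filter. Of the 10, 3 were higher at an adjusted p under 0.05, against a background of 10.3% of all tested genes called higher, and 0 were lower. The median log2 fold change of the 10 genes was 0.40, against 0.00 for all genes tested. In 8 of the 10 both A3B OE libraries lay above both NC libraries, which held for 31.5% of all genes tested. An exact permutation test of a single value cannot go below p = 0.33 with 2 libraries against 2.

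PCNA, the sliding clamp itself, was at 75.9 and 74.8 FPKM in NC and at 102 and 99.1 FPKM in A3B OE. The groups were well apart and each pair of libraries was tight. The ratio of the means was 1.33, with a log2 fold change of 0.41 (SE 0.067, 95% interval 0.24 to 0.57, adjusted p = 0.0125, limma). PCNA kept its call without any 1 of the 4 libraries, with an adjusted p of 0.0275 to 0.0486.

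RFC2 and RFC3, small subunits common to the different loaders, showed the largest called changes. RFC3 was at 10.1 and 8.22 FPKM in NC and at 15.4 and 16.6 in A3B OE. RFC2 was at 14.1 and 11.7 FPKM in NC and at 21.0 and 20.1 in A3B OE. Neither gene had overlapping libraries. The log2 fold change of RFC3 was 0.74 (SE 0.13, adjusted p = 0.0146, limma) and that of RFC2 was 0.64 (SE 0.12, adjusted p = 0.0176, limma). Both calls were lost without A3B OE replicate 1 (adjusted p = 0.0636 for RFC3 and 0.0889 for RFC2) or replicate 2 (0.0864 and 0.0771), with log2 fold changes that remained between 0.61 and 0.80.

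RFC4 and RFC5, the remaining small subunits, had smaller differences that did not pass the test. RFC4 was at 13.3 FPKM in both NC libraries and at 19.3 and 16.5 in A3B OE, 0.40 on the log2 scale (adjusted p = 0.0611, limma). RFC5 was at 10.5 and 9.56 FPKM in NC and at 13.6 and 13.3 in A3B OE, 0.39 on the log2 scale (adjusted p = 0.0582, limma). Their libraries did not overlap, as was also seen for both large subunits. RFC1, the large subunit of the canonical loader, was at 17.9 and 14.0 FPKM in NC and at 20.2 and 23.8 in A3B OE (log2 fold change 0.45, adjusted p = 0.0892, limma). CHTF18, the large subunit of the cohesion-linked loader, was at 7.77 and 7.12 FPKM in NC and at 11.2 and 8.95 in A3B OE (log2 fold change 0.39, adjusted p = 0.118, limma). With 1 library left out, the log2 fold change of RFC1 was between 0.28 and 0.61 and that of RPA3 between 0.39 and 0.91. In such a fit the lone library of a group is assumed to vary like the other group.

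The RPA subunits differed among themselves. RPA1, the large subunit that carries the main ssDNA-binding domains, was at 20.4 and 19.9 FPKM in NC and at 24.2 and 19.1 in A3B OE. RPA2, the middle subunit that is phosphorylated upon replication stress, was at 17.0 and 20.5 FPKM in NC and at 22.0 and 17.9 in A3B OE. For both genes the groups overlapped. Their log2 fold changes were 0.09 (95% interval -0.22 to 0.40) and 0.08 (-0.26 to 0.42), so a rise as large as that of PCNA was just inside the interval of RPA2 and just outside that of RPA1. RPA3, the small subunit, was at 11.2 and 9.05 FPKM in NC and at 19.8 and 13.5 in A3B OE. Its libraries did not overlap, but the A3B OE replicates lay far apart and the log2 fold change of 0.65 (SE 0.20) did not pass (adjusted p = 0.0729, limma). The plot of log2 fold changes sets these intervals beside those of 92.1.

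**Figure D2:**
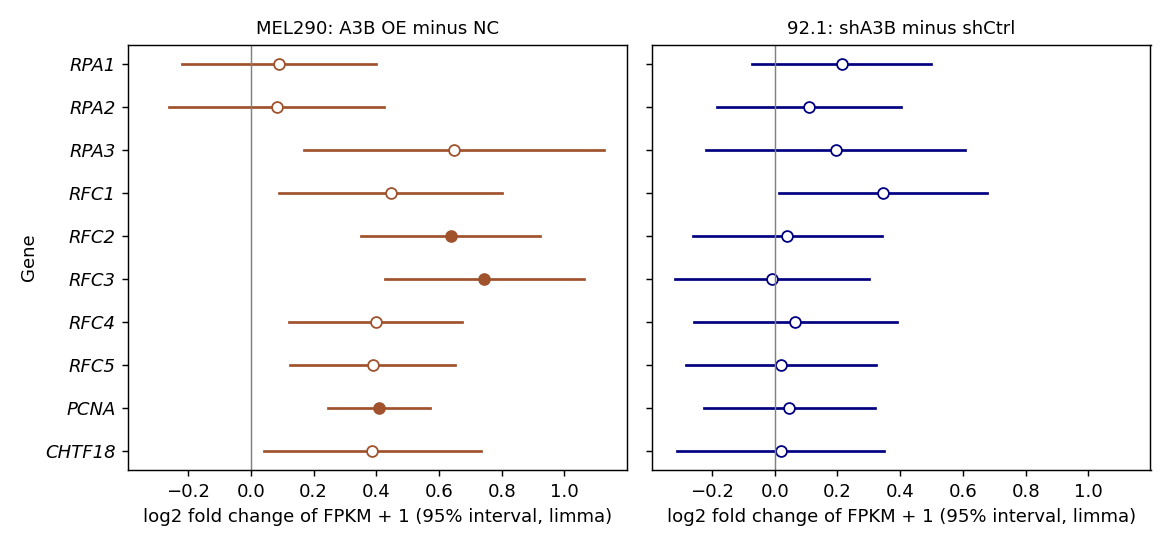
Log2 fold change of FPKM + 1 with its 95% interval (limma) for each gene, A3B OE minus NC in MEL290 on the left and shA3B minus shCtrl in 92.1 on the right, with filled points for an adjusted p under 0.05. PCNA, RFC2 and RFC3 are filled on the left, 0 genes are filled on the right, and 9 of the 10 intervals on the right include 0.

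The second comparison asked whether A3B depletion in 92.1 changed the same genes. Of the 10, 0 passed the test (adjusted p = 0.999 for each, limma), and 1, RFC1, had an unadjusted p under 0.05. The background was 0.00862%, which is 1 of 11605 genes, APOBEC3B itself, while 336 genes had an unadjusted p under 0.05. The study, which used Cuffdiff, reported many more genes as changed in 92.1, both higher and lower. A lack of calls here therefore does not show that the 10 genes were unchanged. The median log2 fold change of the 10 genes was 0.06. In 4 of the 10 (RPA1, RPA2, RFC1 and PCNA) both shA3B libraries lay above both shCtrl libraries, against 15.3% of all genes tested.

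The values in 92.1 were close between the groups for most of these genes. PCNA was at 205 and 202 FPKM in shCtrl and at 211 and 210.2 in shA3B. The groups did not overlap, but the log2 fold change was 0.05 with a 95% interval of -0.23 to 0.32. RFC1 was at 17.5 and 14.3 FPKM in shCtrl and at 19.6 and 21.2 in shA3B, a log2 fold change of 0.34 (95% interval 0.01 to 0.68). RPA1 was at 40.8 and 41.8 FPKM in shCtrl and at 47.6 and 48.5 in shA3B, with 0.21 (-0.07 to 0.50). Both genes were thus higher in each depleted library, by less than the test could call. RPA2 was at 32.0 and 32.8 FPKM in shCtrl and at 36.3 and 33.8 in shA3B, and RPA3 was at 20.5 and 28.4 in shCtrl and at 23.9 and 32.2 in shA3B. Relative to its mean, RPA3 had the widest replicate spread of the 10 genes in both groups of 92.1 (coefficient of variation 23.0% in shCtrl and 20.8% in shA3B), and replicate 2 was the higher library in both.

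RFC2 to RFC5 and CHTF18 overlapped between shCtrl and shA3B. RFC2 was at 27.3 and 29.4 FPKM in shCtrl and at 30.4 and 27.9 in shA3B, and RFC3 was at 35.8 and 30.4 in shCtrl and at 33.3 and 32.2 in shA3B. RFC4 was at 48.8 and 39.1 FPKM in shCtrl and at 44.3 and 47.2 in shA3B, and RFC5 was at 20.9 and 19.7 in shCtrl and at 21.1 and 20.1 in shA3B. CHTF18 was at 21.1 and 25.0 FPKM in shCtrl and at 21.6 and 25.1 in shA3B. The log2 fold changes of these 5 genes were between -0.01 and 0.07, and their 95% intervals reached from -0.32 to 0.39 at the widest.

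A call in one line and not in the other does not show a difference, so the MEL290 effect minus the 92.1 effect was tested over all 8 libraries. A3B rose in MEL290 and fell in 92.1, so a gene that follows A3B equally in both lines also gets a large value. A value away from 0 thus does not by itself show that the lines respond differently to A3B. This contrast shares its libraries with both comparisons above. Of the 10 genes, 0 passed the test, against a background of 4.4% of 12697 genes. At an unadjusted p under 0.05, 4 of the 10 differed (RFC2, RFC3, RFC5 and PCNA), as did 2531 of all genes. The difference was 0.75 for RFC3 (95% interval 0.34 to 1.17, adjusted p = 0.0589), 0.60 for RFC2 (0.22 to 0.97, adjusted p = 0.0865) and 0.36 for PCNA (0.12 to 0.60, adjusted p = 0.102). For RPA1 and RPA2 it was -0.12 and -0.03. When the dependence of the values on GC content and length was removed in each library, RFC3 (0.82, adjusted p = 0.0185) and PCNA (0.39, adjusted p = 0.0320) passed. The same removal changed the split of all called genes from 388 higher and 171 lower to 546 higher and 377 lower.

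Since the perturbations ran in opposite directions, up in MEL290 and down in 92.1, the contrast was also formed after aligning both effects on the A3B level. A gene that follows A3B equally in both lines is then near 0. With this sign PCNA passed (0.45, adjusted p = 0.0457) and the other 9 genes did not, with adjusted p-values from 0.0519 for RFC2 to 0.616 for RPA2. Without the alignment 4.4% of all 12697 genes passed. The share with it is not given here, so the call of PCNA has no background of its own. RFC1, whose log2 fold changes of 0.45 in MEL290 and 0.34 in 92.1 passed neither test, had an aligned difference of 0.79 (95% interval 0.29 to 1.29, adjusted p = 0.0778). RPA1 and RPA2 changed sign under this alignment, to 0.30 and 0.19.

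The control libraries of the lines were compared to give the level from which each perturbation started. Line, vector and culture cannot be told apart in this contrast, and it shares the shCtrl and NC libraries with the comparisons above. Of the 10 genes, 9 were higher in 92.1 shCtrl than in MEL290 NC, where 39.3% of 12352 genes were called higher in 92.1. The same 9 had libraries that did not overlap, against 46.6% of all genes. The median log2 difference was 1.13 for the 10 genes and 0.08 for all genes tested. In bulk RNA, fewer cells in S phase and less of these transcripts per cell cannot be told apart.

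The differences between the lines were uneven across the subunits. RFC3 was 3.61-fold and RFC4 was 3.30-fold higher in 92.1 (log2 differences of 1.75 and 1.64, 95% intervals 1.38 to 2.12 and 1.31 to 1.98). CHTF18 was 3.10-fold and PCNA was 2.70-fold higher (1.51 and 1.42 on the log2 scale). RPA3, RFC2, RPA1, RFC5 and RPA2 followed with ratios of 2.41, 2.19, 2.05, 2.02 and 1.73. These 9 genes had adjusted p-values between 3.0e-05 and 0.0026 (limma). RFC1 was at 15.9 FPKM on average in both controls, and its 95% interval of -0.42 to 0.42 did not overlap those of the other 9 genes, which began at 0.46 or above. With the GC and length trend removed, the log2 difference of CHTF18 fell from 1.51 to 0.56 and kept its call, and that of RFC1 was 0.23 without a call (adjusted p = 0.178).

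**Figure D3:**
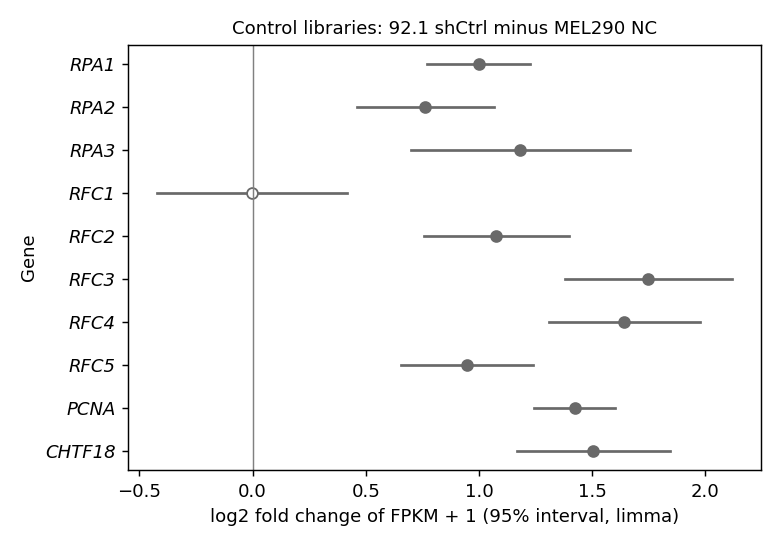
Log2 fold change of FPKM + 1 with its 95% interval (limma), 92.1 shCtrl minus MEL290 NC, for the 10 genes, with filled points for an adjusted p under 0.05. RFC1 lies at 0, and the other 9 genes lie between 0.76 and 1.75.

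The subunit balance of the RFC transcripts differed between the lines. RFC1 made up 11.2 ± 0.638% of the summed RFC1 to RFC5 FPKM in shCtrl and 13.7 ± 0.790% in shA3B, but 25.9 ± 1.79% in NC and 24.5 ± 2.71% in A3B OE (SD, n = 2 each). The highest of the 4 libraries of 92.1 was at 14.3% and the lowest of MEL290 at 22.5%. RFC4 ran the other way, with 30.9 ± 2.14% in shCtrl, 30.8 ± 1.39% in shA3B, 21.8 ± 2.33% in NC and 19.9 ± 2.36% in A3B OE. The mean of the small subunits RFC2 to RFC5 was 1.99 times RFC1 in shCtrl, 1.58 times in shA3B, 0.718 times in NC and 0.778 times in A3B OE. By mean level RFC1 accordingly took rank 10 of the 10 genes in both groups of 92.1 but rank 4 in NC and rank 2 in A3B OE. These ratios are descriptions of the same FPKM values and were given no test. They keep the dependence on GC content and length. With that trend removed, the log2 difference of RFC1 between the controls went from -0.0012 to 0.23, without a call. Under the settings that kept all libraries, those of RFC2 to RFC5 were 0.88 or above.

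**Figure D4:**
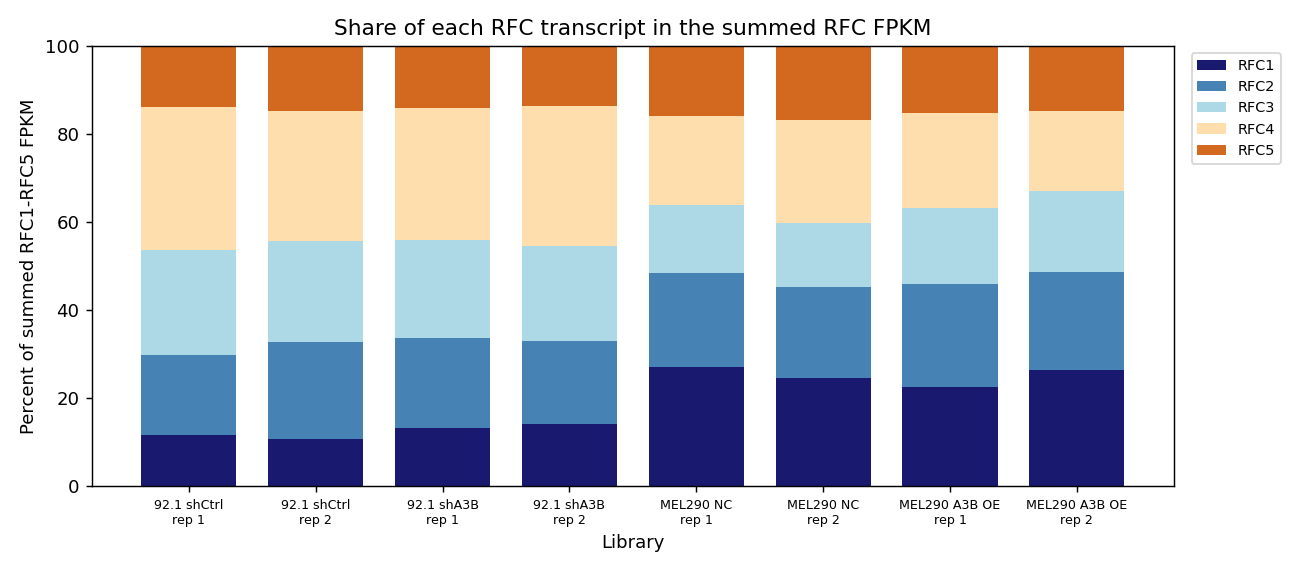
Percent of the summed RFC1 to RFC5 FPKM taken by each subunit gene (y axis, 0 to 100) in each of the 8 libraries. The RFC1 share is 10.8% to 14.3% in the 4 libraries of 92.1 and 22.5% to 27.2% in the 4 of MEL290.

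The large subunits of the loaders stood in different proportion as well. CHTF18 was 1.48 ± 0.385 times RFC1 in shCtrl and 1.14 ± 0.0556 times in shA3B, against 0.471 ± 0.0531 in NC and 0.466 ± 0.128 in A3B OE (SD, n = 2 each). These ratios keep the GC and length trend. With it removed, the log2 differences between the controls were 0.56 for CHTF18 and 0.23 for RFC1, a much smaller contrast. By contrast, PCNA stood at a similar multiple of the mean of RFC2 to RFC5 in 3 groups. It was 6.50 ± 0.440 in shCtrl, 6.56 ± 0.0505 in shA3B and 6.65 ± 0.470 in NC (SD, n = 2 each). In A3B OE it was lower, at 5.91 ± 0.0795, and its libraries (5.85 and 5.97) lay below those of NC (6.32 and 6.98). Within MEL290 the summed RFC1 to RFC5 level was 65.9 and 56.8 FPKM in NC and 89.6 and 90.2 in A3B OE, which did not overlap. The summed RPA level was 48.7 and 49.4 FPKM in NC and 66.0 and 50.5 in A3B OE, so the higher sum rested mostly on A3B OE replicate 1. RPA3 took 20.7 ± 3.38% of the RPA sum in NC and 28.4 ± 2.34% in A3B OE (SD, n = 2 each).

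Genes that work with the clamp, the loader and RPA were counted in lists drawn up from known functions. The 7 other genes of clamp loading, which include CHTF8 and DSCC1 as partners of CHTF18, ATAD5 as the large subunit of the PCNA unloader, and RAD17 with the RAD9A, RAD1 and HUS1 clamp of the DNA damage checkpoint, had 0 called in MEL290 (limma, 1 of 7 at an unadjusted p under 0.05) and a median log2 fold change of 0.31. Of all 11611 genes tested in MEL290, 2065 were called and 3848 had an unadjusted p under 0.05. Between the lines, 5 of these 7 were higher in 92.1 and 2 were lower, where 9021 of all 12352 genes were called, 4856 higher and 4165 lower. Named after their values were seen, DSCC1 was at 18.0 FPKM on average in shCtrl and 1.86 in NC, whereas CHTF8 was at 53.0 and 34.2. RAD17 and HUS1 were the genes that were lower in 92.1 (log2 differences of -0.65 each).

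Of 35 genes whose products bind or modify PCNA, 15 were called higher and 1 lower in MEL290 with A3B OE. Of all 11611 genes tested there, 1195 were called higher (10.3%) and 870 lower. The median log2 fold change of the 35 genes was 0.36. PCLAF, a small PCNA-associated factor, rose from 62.1 to 137 FPKM on average (1.12 on the log2 scale with an adjusted p = 0.00155, limma). POLD1, the catalytic subunit of the PCNA-tethered polymerase delta, and LIG1, the ligase that joins Okazaki fragments, rose by 0.99 and 0.87 on the log2 scale. The gene that fell was CDKN1A, the p21 inhibitor that binds PCNA and cyclin-dependent kinases, at 371 and 391 FPKM in NC and at 194 and 185 in A3B OE (means of 381 and 189 FPKM, adjusted p = 0.00155, limma). In 92.1, CDKN1A was at 16.6 to 32.4 FPKM in the 4 libraries.

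Of 22 genes whose products bind RPA or act on RPA-coated DNA, 20 were tested in MEL290, with a median of 0.42. Against 10.3% of all genes called higher, 8 of these 20 were called higher and 0 lower. Among them were PRIM1, the primase subunit (0.73), TIMELESS, a fork protection factor (0.56), and UNG, which removes the uracil that deaminases leave in DNA (0.42). UNG is in both lists. In 92.1, 0 genes of the 3 lists passed the limma test, with medians of 0.10, 0.08 and 0.07, and at an unadjusted p under 0.05 there were 0, 2 and 0 genes. The unaligned difference between the effects passed for 0 of the 7 and for 5 of the 35 (4 higher and 1 lower). It passed for 1 of the 21 RPA list genes tested there and for 4.4% of all genes. In the line comparison 18 of the 35 were higher and 8 lower in 92.1, as were 11 and 3 of the 20 tested RPA list genes, where of all 12352 genes 4856 were higher and 4165 lower.

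Cell cycle genes moved in MEL290 as well. Of the 41 S phase genes of the Seurat list besides PCNA and RFC2, 40 were tested, with a median of 0.62. Against 10.3% of all genes called higher, 27 of these 40 were called higher and 0 lower. The list shares 7 genes with the PCNA list and 6 with the RPA list. Of 54 G2/M genes, 49 were called higher and 0 lower, with a median of 0.90, and the 10 genes thus had a lower median (0.40) than either cell cycle list. The summed S phase level was 604 to 619 FPKM in NC and 908 to 1006 in A3B OE, and the summed G2/M level was 1349 to 1451 and 2379 to 2434. RRM2, the small subunit of ribonucleotide reductase, GMNN, the replication licensing inhibitor, CENPU and CDCA7 had the largest rises of the S phase list among genes that averaged 4 FPKM or more (0.96 to 1.07). PIMREG, CDCA3, HMGB2 and NUF2 had those of the G2/M list under the same limit (1.45 to 1.53). In 92.1, 0 genes of either list passed (limma, 1 of 41 and 6 of 53 at an unadjusted p under 0.05), with medians of 0.10 and 0.11. The unaligned difference between the effects passed for 6 of 41 S phase and 27 of 54 G2/M genes, against 4.4% of all genes. All of the list genes that passed had a positive difference, while 3 of the 41 and 3 of the 54 were below 0. Between the lines, 32 of 41 S phase genes were higher in 92.1 and 1 was lower, and 32 of 54 G2/M genes were higher and 8 lower, against the same 39.3% of all genes called higher. The part of the cell cycle distribution in the differences of PCNA, RFC and RPA was not tested.

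**Figure D5:**
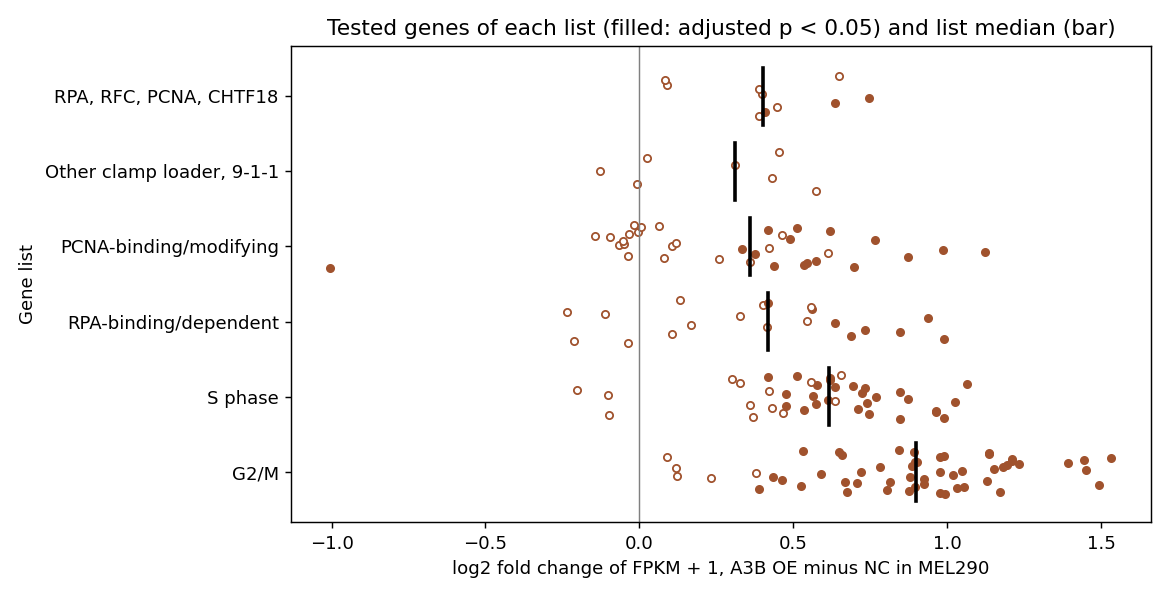
Log2 fold change of FPKM + 1, A3B OE minus NC in MEL290 (x axis), for the tested genes of each list (rows), with filled points for an adjusted p under 0.05 and a black bar at the list median. The medians run from 0.31 for the other clamp loading genes to 0.90 for G2/M, with 0.40 for the 10 genes, and CDKN1A is the single filled point left of 0.

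Across the 8 libraries, the genes whose level most resembled PCNA were found among the 9893 genes that averaged 4 FPKM or more. They were MACROH2A2, ILF2, CHAF1B, TRA2B and BAIAP2L1, each with a Pearson r of 0.999 on log2(FPKM + 1). These points share 2 lines and 4 groups, and 28.7% of the genes had an r above 0.9 with PCNA, so the measure mostly ranks genes by the contrast between the lines. Of the other 9 genes, RFC4 was closest to PCNA (r = 0.993, rank 106), then RFC5 (0.989), CHTF18 (0.987) and RFC3 (0.983). The r of RFC1 with PCNA was 0.06, at rank 5169 of 9892. For the mean of the standardized 10 genes, the closest others were MDP1, DHX9, SUPT16H, SRSF7 and TICRR (r from 0.994 to 0.996), of which TICRR is also in the PCNA list.

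The 10 loci lie apart from each other on GRCh38, with RPA3 and RFC2 both on chromosome 7. The gene bodies are chr17:1829702-1900082 for RPA1, chr1:27891524-27914746 for RPA2 and chr7:7636518-7718607 for RPA3. Those of RFC1 to RFC5 are chr4:39287456-39366375, chr7:74231499-74254458, chr13:33818069-33966558, chr3:186789880-186807058 and chr12:118013588-118033130. PCNA is at chr20:5114953-5126626 and CHTF18 at chr16:788046-800737. The values cover all exons of each gene, and the labels do not say whether strand was used in counting. In GENCODE release 44, exons of the main transcript overlap exons of a gene on the opposite strand for 3 of the 10. The overlap covers 3.47% of the length for RPA3 (UMAD1), 7.6% for RFC5 and 1.1% for CHTF18 (GNG13), so part of these values is uncertain. The methods of the study name an earlier Ensembl release, so the gene models behind the values may differ from these.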

How the data were processed

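RNA-seq of 8 libraries (4 groups of 2) was analysed. Per the labels and the methods of the study, the authors built libraries from total RNA with the NEBNext Ultra kit, used STAR for alignment of the read pairs against GRCh38, and derived the deposited FPKM values per Ensembl gene with Cufflinks. Tool versions are not given in the sources used here. Samples were grouped by their titles. The 10 genes and the gene lists were chosen with earlier results of these data known. All genes were fitted with limma 3.58.1 (lmFit, eBayes with trend, R 4.3.3) on log2(FPKM + 1), a scale that understates changes of low genes, for genes reaching an FPKM of 1 in 2 or more libraries of the comparison. P-values were Benjamini-Hochberg adjusted over all genes tested and called under 0.05. The fit was checked on simulated data. Besides the 10 genes, each list names at most its 4 called genes with the largest change in MEL290 and a mean of at least 4 FPKM, and likeness names the top 5. S and G2/M lists came from Seurat 5.3.0. Locus coordinates, GC content and length were taken from GENCODE release 44 (19033 of 19952 symbols matched). Alternatives were limma without trend, quantile and upper quartile scaling, 2 other filters, a pseudocount of 0.1, removal of a GC and length trend, a minimum change of 1, all libraries in 1 fit, a replicate block and each library left out. Depth is unknown, so no counting error is given.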

Additional observations from a re-analysis of the deposited data

How the results depend on the processing

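In MEL290, PCNA kept its call under each alternative except a minimum absolute log2 change of 1. The number of called genes among the 10 went from 3 to 1 without a filter on low FPKM (adjusted p = 0.0691 for RFC2 and 0.0669 for RFC3, limma), to 0 with the minimum change of 1, and to between 1 and 5 when 1 library was left out. All genes called in MEL290 went from 2065 to 915, 314 and 809 to 1979 under the same settings. In 92.1 the 10 genes had 0 calls under each alternative, and the 1 gene called of all became 2 without the trend, 0 without the filter and 2 to 9 with a library left out. For the difference between the effects, 559 genes became 328 with 1 FPKM required in each library, 923 with the GC and length trend removed, 287 with the minimum change and 36 to 286 with a library left out, and the 10 genes had 2 calls with the trend removed and 1 with aligned effects. Between the lines, 9021 genes became 4959 with the minimum change. The labels do not say what the replicate numbers mark, and with 2 pairs a comparison the correlation of deviations between libraries with equal number was -0.03 in MEL290, 0.19 in 92.1 and 0.03 between the lines, so whether they share a batch was not settled. A replicate block gave 1521 genes in MEL290, 37 in 92.1, 223 for the difference and 9279 between the lines, and 4, 0, 0 and 9 of the 10 genes (RPA3 added in MEL290, adjusted p = 0.0301). With all 8 libraries in 1 fit RFC5 was added in MEL290 (adjusted p = 0.0372). Values near 0 changed sign. In 92.1 RFC3 was 0.0076 with quantile normalization and 0.0088 with upper quartile scaling, and RFC5 was -0.021 and PCNA -0.016 with the GC and length trend removed. For the difference with aligned effects RPA1 was 0.30 and RPA2 0.19, and RFC1 between the lines was 0.23 with the trend removed. Leaving out 1 library gave ranges in MEL290 of -0.070 to 0.25 for RPA1 and -0.061 to 0.22 for RPA2. The ranges in 92.1 were -0.033 to 0.42 for RPA3, -0.021 to 0.10 for RFC2, -0.12 to 0.10 for RFC3, -0.090 to 0.22 for RFC4, -0.021 to 0.063 for RFC5 and -0.10 to 0.14 for CHTF18. For the difference they were -0.28 to 0.038 for RPA1, -0.17 to 0.12 for RPA2 and -0.066 to 0.27 for RFC1, and between the lines -0.17 to 0.17 for RFC1. The lone library of a group is then assumed to vary like the other group. The causes of these changes were not tested.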
